A study of Mus musculus with 24 samples.

Results

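The lysosome is the acidic compartment in which cells take apart engulfed particles, worn-out organelles and lipids. Its acid is made by the vacuolar proton pump (V-ATPase), built from a membrane sector (V0, the proton channel) and a cytosolic sector (V1, which burns ATP). Its cathepsins cut proteins, and a chain of hydrolases with their activator proteins strips sugars and lipid groups from sphingolipids and glycans. TFEB, TFE3 and MITF are related transcription factors that bind short boxes in the promoters of many of these genes. In macrophages this system digests bacteria and dead cells.

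The 50 mouse genes described here are 16 V-ATPase subunits and accessory proteins, 8 cathepsins, 14 genes of sphingolipid and glycan breakdown, 7 genes of sterol and lipid handling or of the lysosomal membrane, and 5 genes of the TFEB group (Tfeb, Tfe3, Mitf, the lysosomal calcium channel Mcoln1 and the membrane glycoprotein Gpnmb). They were chosen by symbol from the 54658 genes listed in each deposited count table, and all 50 were found in both tables.

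RNA was sequenced from 24 libraries of male C57BL/6 mice aged 7 to 12 weeks, which received β-nicotinamide mononucleotide (β-NMN, a precursor of NAD+) at 185 mg per kg body weight per intraperitoneal injection, or saline as the vehicle. One set was peritoneal cells drawn out by thioglycollate (TGC), plated and stimulated with Escherichia coli for 6 h, with 6 libraries from β-NMN mice and 6 from vehicle mice. The other set was heart and lung taken the day after cecal ligation and puncture (CLP), a surgical model of polymicrobial sepsis, with 3 libraries of each organ from β-NMN mice and 3 from vehicle mice, both organs from the same 6 animals. By the paper, the peritoneal set came after daily injections over 3 days and the organs after a single administration. The sets thus differ in exposure to β-NMN as well as in model, and the part of this difference was not tested. Every peritoneal library was stimulated and every organ library came from a septic mouse, so the comparisons below are between treatments and contain no unstimulated or sham reference.

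Total counts ranged from 31126823 to 112456050 in peritoneal cells, from 27319513 to 68523239 in heart and from 8915366 to 28356786 in lung. Levels are given as CPM (counts in a library scaled to 1000000, within each tissue), and levels of different genes are compared as RPKM (CPM per kilobase of exon). The labelled tissues carried their own markers, with cardiomyocyte markers summing to 29617 to 52217 CPM in heart, club cell markers to 32304 to 69968 CPM in lung and macrophage markers to 6375 to 12496 CPM in peritoneal cells. One vehicle library of each organ, replicate 2, stood apart. Its log2 values differed from the mean of the other libraries of its organ with an SD of 0.99 in heart, where the others lay between 0.39 and 0.58, and of 1.57 in lung, where the others lay between 0.45 and 0.60. In heart that library held less cardiomyocyte RNA (29617 CPM, others 44948 to 52217 CPM) and more mesothelial RNA (98 CPM, others 5.66 to 12.1 CPM). In lung it held less of the macrophage markers (1388 CPM, others 4015 to 5480 CPM) and of the endothelial markers (682 CPM, others 1311 to 1930 CPM). It held more of the fibroblast markers (1436 CPM, others 715 to 1223 CPM). It was also the shallowest lung library, with 8915366 counts where the others had 16654852 to 28356786. These are bulk samples, in which fewer cells of a type and less RNA per cell cannot be told apart.

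Promoter sequence was available for 40 of the 50 genes, from RefSeq on GRCm38.p6, as windows of 300 bases that run from 250 bases before to 50 bases after a transcription start. The E-box CACGTG, the core of the site bound by TFEB and its relatives, reads the same on both strands and occurred in 7.15% of all 32851 windows and in 13 of the 49 windows of these genes (26.5%). Counted by gene, 8.09% of all genes and 13 of the 40 (32.5%) had a window holding it. Its 8-base form TCACGTGA, which contains it, occurred in 0.974% of all windows and in 7 of the 49 (14.3%), those of Atp6v0d1, Atp6v0e, Atp6v1a, Ctsa, Ctsd, Gla and Mcoln1. The stretches printed here are from genes whose counts are described below, read 5′ to 3′ on the gene's own strand, upstream of the RefSeq start and outside annotated exons, with CACGTG in capitals. They show Lamp1 at chr8:13159021-13159160 on the plus strand, Atp6v0b at chr4:117887334-117887473 on the minus strand, Atp6v1a at chr16:44139306-44139445 on the minus strand, Glb1 at chr9:114400936-114401075 on the plus strand and Mcoln1 at chr8:3500317-3500456 on the plus strand.
Lamp1: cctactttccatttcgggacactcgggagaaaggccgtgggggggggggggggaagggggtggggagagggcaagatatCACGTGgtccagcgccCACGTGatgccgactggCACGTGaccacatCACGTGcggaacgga
Atp6v0b: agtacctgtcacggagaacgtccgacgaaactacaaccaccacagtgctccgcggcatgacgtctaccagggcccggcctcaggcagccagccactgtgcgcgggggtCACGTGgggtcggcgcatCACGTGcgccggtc
Atp6v1a: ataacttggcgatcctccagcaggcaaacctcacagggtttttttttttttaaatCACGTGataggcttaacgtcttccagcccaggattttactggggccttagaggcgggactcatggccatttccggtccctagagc
Glb1: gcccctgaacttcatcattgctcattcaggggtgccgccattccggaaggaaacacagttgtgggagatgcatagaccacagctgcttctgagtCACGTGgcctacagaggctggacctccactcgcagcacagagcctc
Mcoln1: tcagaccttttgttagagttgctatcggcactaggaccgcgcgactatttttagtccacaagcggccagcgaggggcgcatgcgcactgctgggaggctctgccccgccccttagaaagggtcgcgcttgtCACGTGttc
The Lamp1 stretch held 4 boxes, Atp6v0b held 2, and the others held 1 each. A match describes the letters and not a bound site.

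In the stimulated peritoneal cells most of the 50 genes were higher with β-NMN. Of the 50, 37 were higher, 5 were lower and 8 passed no threshold by edgeR's quasi-likelihood test with Benjamini-Hochberg adjustment over 14985 genes (adjusted p below 0.05). Over all genes tested, 23.7% were called higher and 27.9% lower. The median log2 fold change of the 50 genes was 0.56, against -0.02 over all genes. In 28 of the 50 every β-NMN library lay above every vehicle library, and in 4 (Hgsnat, Neu1, Tfe3 and Tfeb) every β-NMN library lay below, where 12.6% and 14% of all genes did so. Summed over the 50 genes, the level was 35950 to 50408 CPM in the vehicle libraries and 79556 to 97987 CPM in the β-NMN libraries.

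**Figure D1:**
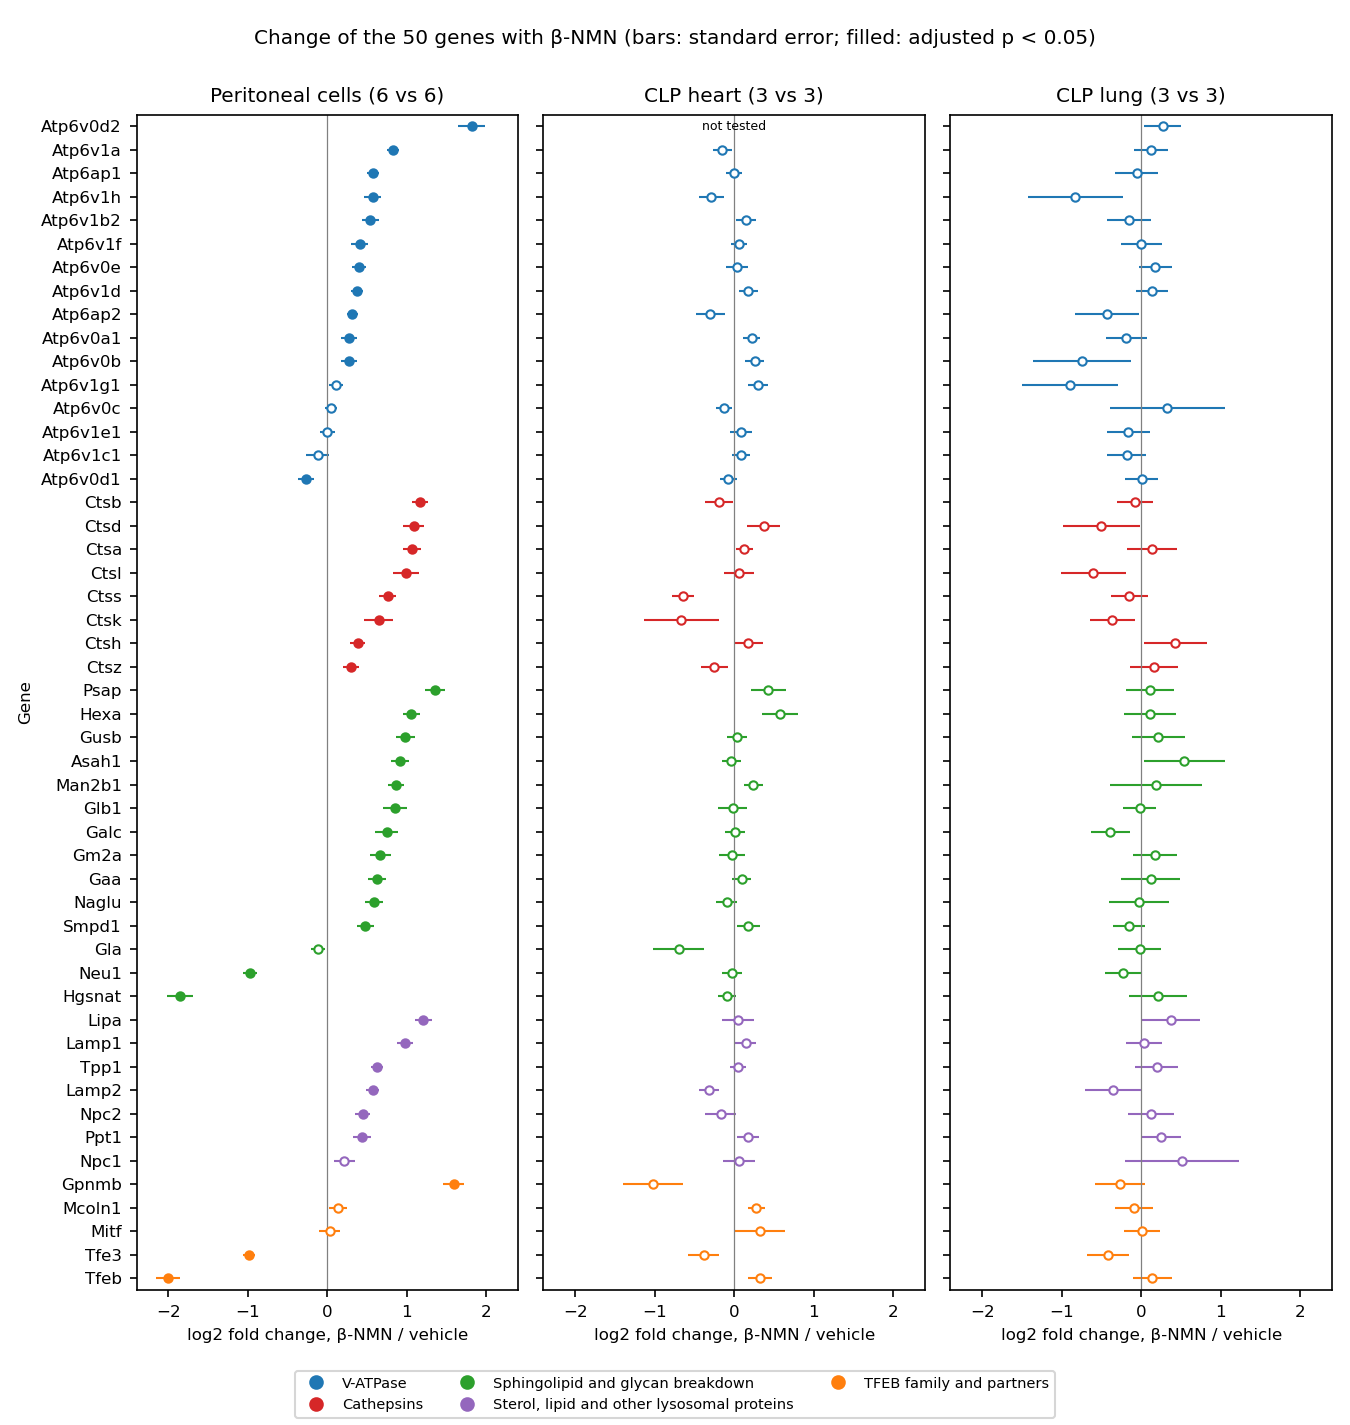
Log2 fold change (β-NMN against vehicle) of each of the 50 genes, grouped by role, in peritoneal cells, CLP heart and CLP lung. In peritoneal cells 43 of 50 genes lie above 0, while in heart and lung the values scatter on both sides of 0 and none was called by edgeR's quasi-likelihood test.

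The other cell types these cultures can hold also differed. Neutrophil markers summed to 93.8 to 301 CPM with vehicle and 8.68 to 33.3 CPM with β-NMN, with 4 of 6 tested markers lower and 1 higher, and Camp, Mpo and Ngp stayed under 1 CPM. T and NK cell markers fell (5 of 5 lower, 7.94 to 34.2 CPM against 2.51 to 5.28 CPM), and so did fibroblast markers (4 of 4 lower, 74.1 to 812 CPM against 17.1 to 64.4 CPM). Dendritic cell markers summed to 32.5 to 52.4 CPM with vehicle and 13.8 to 18.1 CPM with β-NMN, with 3 of 4 lower and 1 higher. B cell markers had 2 of 4 lower and mast cell markers 1 of 4, with none higher. Eosinophil markers went the other way, with 1 of 2 tested higher and none lower (8.23 to 32.5 CPM against 15.3 to 60.8 CPM, overlapping). Resident peritoneal macrophage markers were mixed, with 2 of 5 higher and 2 lower (19.1 to 28.5 CPM against 24.0 to 56.7 CPM). Macrophage markers summed to 6375 to 12496 CPM against 9205 to 10427 CPM, with 2 of 8 higher and 1 lower, at a median of 0.06 on the log2 scale. The part of cell composition in the changes of the lysosomal genes was not tested.

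Of the 16 V-ATPase genes, 11 were higher, 1 was lower and 4 were not called, with a median log2 fold change of 0.35. Atp6v0d2, an alternative d subunit of the V0 sector that is abundant in osteoclasts and some macrophages, ran from 118 to 218 CPM in the 6 vehicle libraries (median 137) and from 333 to 628 CPM in the 6 β-NMN libraries (median 509). The groups did not overlap, and the log2 fold change was 1.81 (SE 0.17, adjusted p = 1.07e-06). Atp6v1a, the catalytic A subunit of the V1 sector, had a median of 504 CPM with vehicle (466 to 553) and of 907 CPM with β-NMN (837 to 970). Every β-NMN library lay above every vehicle library, with a log2 fold change of 0.83 (SE 0.08, adjusted p = 1.08e-06). Atp6ap1, an accessory protein needed to assemble the pump, had a median of 236 CPM with vehicle (216 to 265) and of 349 CPM with β-NMN (313 to 391), and rose by 0.57 on the log2 scale (SE 0.08, adjusted p = 3.44e-05).

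The other pump genes that rose did so by 1.21 to 1.49-fold. They were Atp6v1h (log2 fold change 0.57), Atp6v1b2 (0.54), Atp6v1f (0.40), Atp6v0e (0.40), Atp6v1d (0.38), Atp6ap2 (0.32), Atp6v0a1 (0.27) and Atp6v0b (0.27). Calls on Atp6v0a1 and Atp6v0b were lost in 6 of 19 other analyses each. Atp6v0c, which forms the proton-carrying ring, and the V1 subunits Atp6v1c1, Atp6v1e1 and Atp6v1g1 were not called, with log2 fold changes of 0.05, -0.12, 0.00 and 0.11. Among these, Atp6v1e1 had a median of 275 CPM with vehicle and 273 CPM with β-NMN.

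The alternative d subunits moved in opposite directions. Atp6v0d1, the ubiquitous form (GRCm38 chr8:105524465-105566047), had a median of 128 CPM with vehicle (102 to 144) and of 103 CPM with β-NMN (90.4 to 115). The groups overlapped, the log2 fold change was -0.27 (SE 0.10, adjusted p = 0.0332), and the call was lost in 10 of 19 other analyses, with an adjusted p of up to 0.226. Expressed per length, Atp6v0d1 stood at 69.7 ± 9.57 RPKM and Atp6v0d2 (chr4:19876841-19922605) at 53.8 ± 13.5 RPKM with vehicle, and at 57.7 ± 5.42 and 189 ± 40.5 RPKM with β-NMN (SD, n = 6). Atp6v0d2 therefore made up 37.4% to 50.8% of the d1 and d2 reads per length in the vehicle libraries (median 42.8%) and 70.9% to 78.7% in the β-NMN libraries (median 76.8%), and these ranges did not overlap.

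**Figure D2:**
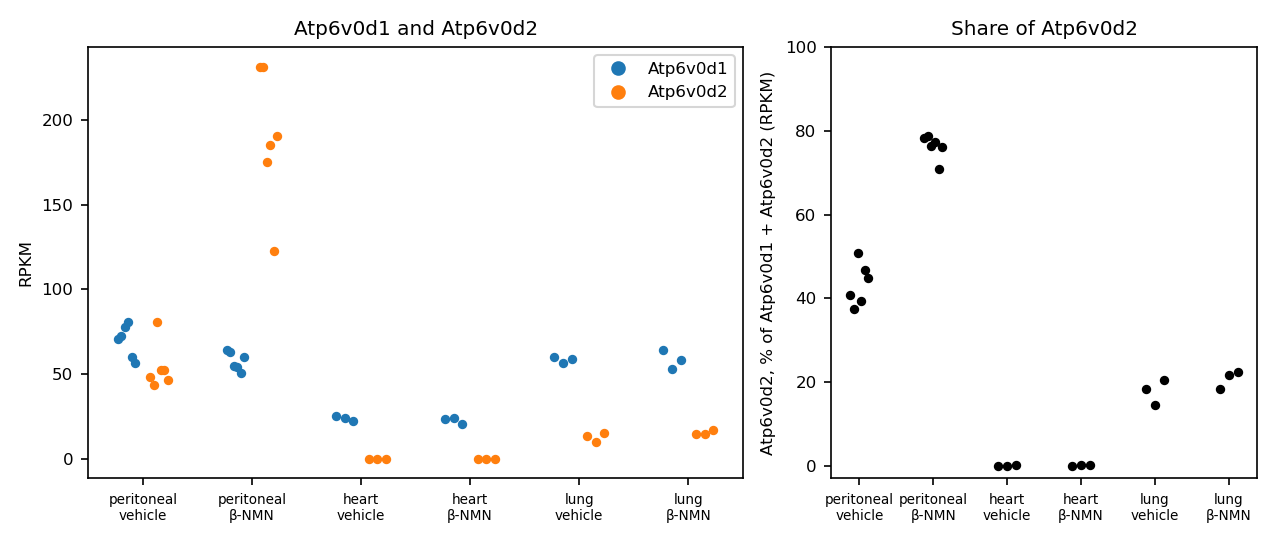
RPKM of the alternative V-ATPase d subunits Atp6v0d1 and Atp6v0d2 in each library of peritoneal cells, heart and lung, by treatment. In peritoneal cells the 6 β-NMN libraries hold 70.9% to 78.7% Atp6v0d2, above the 37.4% to 50.8% of the vehicle libraries, and in heart Atp6v0d2 lies near 0.

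All 8 cathepsins rose, with a median log2 fold change of 0.87. Ctsb, a cysteine protease and the most counted of them, ran from 6073 to 8201 CPM with vehicle (median 7014) and from 14741 to 17693 CPM with β-NMN (median 15704), a log2 fold change of 1.17 (SE 0.10, adjusted p = 6.55e-07). Ctsd, the aspartic protease, had a median of 1269 CPM with vehicle (1094 to 1731) and of 2681 CPM with β-NMN (2136 to 3312), a change of 1.08 (SE 0.13, adjusted p = 9.27e-06). Ctsa, a serine carboxypeptidase that also protects NEU1 and GLB1 in a shared complex, had a median of 688 CPM with vehicle (580 to 925) and of 1442 CPM with β-NMN (1290 to 1631), a change of 1.06 (SE 0.12, adjusted p = 3.81e-06). In each of these the treatment groups did not overlap. Ctsl rose by 0.99, Ctss by 0.76, Ctsk by 0.65, Ctsh by 0.38 and Ctsz by 0.30 on the log2 scale, and the call on Ctsz was lost in 3 of 19 other analyses. Several of these genes share exon sequence with a neighbour, namely 34.4% of the exon bases of Ctsd with a gene on the same strand, and 26.9% of those of Ctsl, 17.4% of those of Ctsa and 12.8% of those of Ctsb with genes on the opposite strand. Ctsl shares a further 6.09% with a gene on its own strand, and Ctsz 0.69% with one on the opposite strand. The strand setting of the counting was not given in the sources used here.

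Among the 14 genes of sphingolipid and glycan breakdown, 11 rose, 2 fell and 1 was not called, with a median log2 fold change of 0.71. Psap, whose product is cut into the saposins that present sphingolipids to their hydrolases, ran from 6739 to 10135 CPM with vehicle (median 8119) and from 18932 to 24958 CPM with β-NMN (median 19833). The groups did not overlap, and the log2 fold change was 1.35 (SE 0.12, adjusted p = 7.48e-07). The hydrolases that rose included Hexa (1.06, a β-hexosaminidase subunit that degrades GM2 ganglioside), Gusb (0.98, β-glucuronidase), Asah1 (0.91, acid ceramidase), Man2b1 (0.86, α-mannosidase), Glb1 (0.85, β-galactosidase) and Galc (0.75, which removes galactose from galactosylceramide). The GM2 activator Gm2a rose by 0.67, Gaa (acid α-glucosidase) by 0.62, Naglu by 0.59 and Smpd1 (acid sphingomyelinase) by 0.48. Gla, the α-galactosidase that clears globotriaosylceramide, was not called, with medians of 402 CPM with vehicle and 378 CPM with β-NMN and a log2 fold change of -0.12.

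Both genes of this group that fell did so without overlap between the treatments. Hgsnat, the membrane enzyme that acetylates heparan sulfate inside the lysosome, ran from 77.3 to 177 CPM with vehicle (median 112) and from 28.6 to 34.6 CPM with β-NMN (median 31.9), a fall of 3.61-fold (log2 fold change -1.85, SE 0.17, adjusted p = 6.47e-07). Neu1, the sialidase that removes terminal sialic acids, had a median of 117 CPM with vehicle (90.9 to 127) and of 56.9 CPM with β-NMN (53.7 to 61.1), a log2 fold change of -0.97 (SE 0.09, adjusted p = 6.68e-07). Naglu, which acts on heparan sulfate in the step after Hgsnat, rose while Hgsnat fell, and Ctsa, the partner of Neu1, rose while Neu1 fell.

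Of the 7 genes of sterol, lipid and membrane function, 6 rose, with a median log2 fold change of 0.57. Lipa, the acid lipase that frees cholesterol from its esters, had a median of 173 CPM with vehicle (150 to 240) and of 433 CPM with β-NMN (347 to 464), a log2 fold change of 1.21 (SE 0.11, adjusted p = 8.57e-07). Lamp1, a main glycoprotein of the lysosomal membrane, ran from 800 to 1140 CPM with vehicle (median 944) and from 1696 to 2061 CPM with β-NMN (median 1849), a change of 0.98 (SE 0.10, adjusted p = 1.85e-06). Tpp1, a serine protease that trims tripeptides, had a median of 206 CPM with vehicle (176 to 219) and of 310 CPM with β-NMN (296 to 339), a change of 0.63 (SE 0.07, adjusted p = 7.68e-06). None of these 3 overlapped between treatments. Lamp2 rose by 0.57, Npc2 by 0.44 and Ppt1 by 0.43. Npc1, the membrane partner that takes cholesterol from NPC2, was not called, at a median of 164 CPM with vehicle and 199 CPM with β-NMN (log2 fold change 0.21, adjusted p = 0.187).

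The TFEB group was the mixed one, with 1 gene higher, 2 lower and 2 not called. Tfeb ran from 27.6 to 50.3 CPM with vehicle (median 31.4) and from 6.66 to 10.8 CPM with β-NMN (median 8.46). No β-NMN library reached the lowest vehicle library, and the fall was 4.01-fold (log2 fold change -2.0, SE 0.16, adjusted p = 1.89e-07). Tfe3 had a median of 55.7 CPM with vehicle (53.7 to 67.0) and of 28.7 CPM with β-NMN (27.7 to 31.6), again without overlap, a log2 fold change of -0.99 (SE 0.08, adjusted p = 1.73e-07). Mitf, the third factor of the family in this list, had medians of 57.3 CPM with vehicle and 55.9 CPM with β-NMN and overlapped (log2 fold change 0.03, SE 0.13, adjusted p = 0.862, of either sign in other analyses). Mcoln1 had medians of 51.2 and 56.3 CPM and was not called (0.13, SE 0.12, adjusted p = 0.361). Gpnmb, a glycoprotein of lysosome-laden macrophages, moved opposite to Tfeb, from 5055 to 8201 CPM with vehicle (median 5815) to 16247 to 20876 CPM with β-NMN (median 18759), a log2 fold change of 1.59 (SE 0.14, adjusted p = 4.41e-07).

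**Figure D3:**
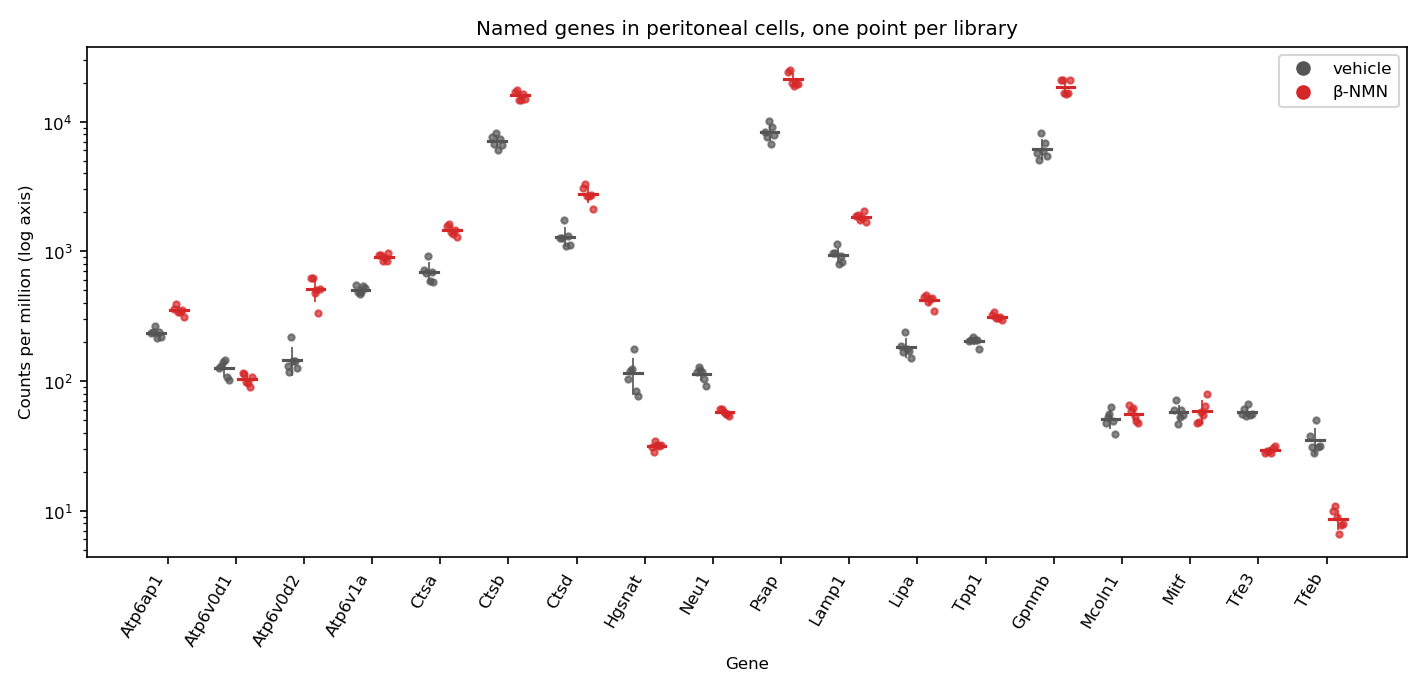
CPM (log axis) in each of the 6 vehicle and 6 β-NMN peritoneal libraries for the named genes of each role group. Tfeb, Tfe3, Hgsnat and Neu1 lie lower in every β-NMN library, and Psap, Ctsb, Gpnmb and Atp6v0d2 lie higher in every one.

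Per length, Psap was the most abundant of the 50 in both treatments (3022 ± 429 RPKM with vehicle and 7718 ± 950 with β-NMN, SD, n = 6), followed by Ctss (2376 ± 396 and 4016 ± 150). The SD ranges of the pair overlapped with vehicle and were apart with β-NMN. Gpnmb moved from the fifth place (953 ± 177 RPKM) to the third (2866 ± 364), where it lay within the spread of Ctsb (2632 ± 207). With vehicle its SD range also overlapped those of Ctsb and Ctsz. At the other end, Galc was lowest with vehicle (1.22 ± 0.30 RPKM), and Tfeb, at 6.15 ± 1.45 RPKM with vehicle, was lowest with β-NMN at 1.53 ± 0.27.

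The peritoneal counts were also split by whether the promoter window held a CACGTG, and the difference between these groups was not tested. Of the 13 holding it, 10 were higher, 1 was lower and 2 were not called, at a median of 0.62 (log2), and of the 27 without it, 21 were higher, 3 lower and 3 not called, with a median of 0.48. With the box, Atp6v0d1 fell and Mcoln1 and Gla were not called, and without it Neu1, Tfe3 and Tfeb fell.

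The 42 calls had the same direction in the libraries above and in those below 70000000 counts. They were made on these same libraries, so the shared direction is no independent check. Sizes could differ between the depth classes. The mean log2 difference was -0.03 above and -0.43 below for Atp6v0d1, 0.55 and 0.08 for Atp6v0b, and 1.18 and 0.31 for Ctsk, while Hgsnat gave -1.82 in both. With any 1 library left out, 39 to 42 of the 50 genes were called, among them 39 to 41 of these 42, and the median log2 fold change was 0.52 to 0.61. The replicates were labelled as separate mice.

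The wider lysosomal pathway was read from lists that exclude the 50 genes. Of 23 other lysosomal hydrolases, 18 rose and 1 fell, with Pla2g15 (a lysosomal phospholipase, log2 fold change 1.80, adjusted p = 9.37e-07) and Acp2 (an acid phosphatase, 0.81, adjusted p = 4.39e-07) carrying the smallest p. Of 17 other membrane proteins, 12 rose and 2 fell, and the sialic acid exporter Slc17a5 rose by 1.04 and Laptm5 by 0.94. Of 9 genes that mark enzymes with mannose 6-phosphate or carry them to the lysosome, 8 rose and none fell, with Nagpa at 0.95 and Gnptg at 0.70. Only 3 of 9 further V-ATPase subunits had enough counts to test, and all 3 rose, including Tcirg1, the a3 subunit (0.42), and Atp6v1g2 (1.14, at about 1 CPM).

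Lists further from the lysosomal lumen held genes called in both directions, and are to be read beside the 23.7% higher and 27.9% lower of all genes. Of 21 genes of sphingolipid synthesis and signalling, 8 rose and 6 fell, with Cers2, a ceramide synthase, at 0.76 and Sptlc1, of the first step of synthesis, at 0.62. Of 18 tested genes of nutrient sensing at the lysosome, 10 rose and 4 fell. The 4 that fell were Flcn, its partners Fnip1 and Fnip2, and Rragd. FLCN is a regulator through which the Rag GTPases hold TFEB in the cytosol, and Flcn itself fell from a median of 110 CPM (87.7 to 187) to 43.3 CPM (35.2 to 52.2), a log2 fold change of -1.45 (SE 0.17, adjusted p = 7.06e-06), while the arginine sensor Slc38a9 rose by 0.60. Of 20 autophagy genes, 4 rose and 9 fell, among the latter the initiating kinase Ulk1 (-1.15) and Vps18 (-0.87).

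**Figure D4:**
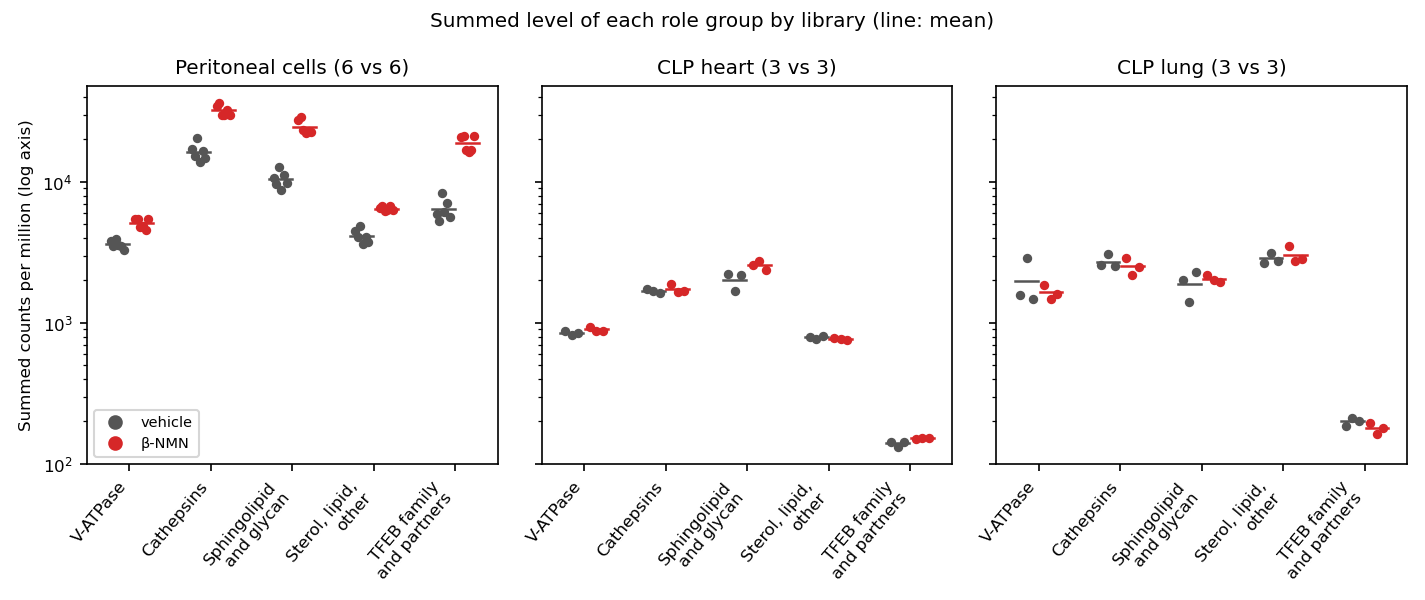
Summed CPM of each role group in every library, by tissue and treatment. The peritoneal β-NMN libraries lie above the vehicle libraries in all 5 groups, where the TFEB group is nearly all Gpnmb and without it lies lower with β-NMN (180 to 233 CPM against 142 to 167 CPM). In heart the sphingolipid group (1693 to 2210 CPM against 2372 to 2763 CPM) and the TFEB group (131 to 144 CPM against 151 to 153 CPM) do not overlap between treatments, but the sphingolipid group does without Psap (622 to 625 CPM against 622 to 721 CPM).

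In the hearts of septic mice no change of these genes with β-NMN passed edgeR's test, and 1 passed DESeq2's. Of the 49 genes tested, none was called by edgeR's quasi-likelihood test, as for all 16245 genes tested (0%), and 6 of the 49 had an unadjusted p below 0.05, as had 1837 of all genes (11.3%). By DESeq2, 1 was called, Ctss, as were 262 of all genes. The median log2 fold change was 0.04, against -0.01 over all genes. With 3 against 3 libraries an exact permutation test cannot fall below p = 0.1. In 9 genes every β-NMN heart lay above every vehicle heart and in 7 every one lay below, against 11.6% and 11.5% of all genes. Summed over the 50 genes, the vehicle hearts held 5097 to 5759 CPM and the β-NMN hearts 5824 to 6311 CPM, or 4027 to 4171 and 4074 to 4455 CPM, which overlap, without Psap. Atp6v0d2 was not tested in heart, where its counts ran from 0 to 6 per library and never exceeded 0.111 CPM.

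The cathepsin Ctss, abundant in antigen-presenting cells, was the heart gene with the smallest p. It measured 35.4, 41.4 and 33.9 CPM in the vehicle hearts and 26.9, 22.9 and 21.1 CPM in the β-NMN hearts. The groups did not overlap, and the log2 fold change was -0.65 (SE 0.14, edgeR adjusted p = 0.435, DESeq2 adjusted p = 0.0198). Macrophage markers summed to 253 to 403 CPM with vehicle and 281 to 489 CPM with β-NMN in the same hearts. Their median log2 fold change was -0.26 over 8 markers, of which none was called. The part of cell composition in the value of Ctss was not tested. Without vehicle replicate 2 the change of Ctss was -0.56 (adjusted p = 0.201).

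Ctsd measured 445, 284 and 448 CPM with vehicle and 513, 506 and 503 CPM with β-NMN (log2 fold change 0.37, SE 0.21, adjusted p = 0.463). The low vehicle value was replicate 2, and the change was 0.18 without it. Gpnmb measured 6.56, 16.2 and 6.58 CPM against 5.14, 4.84 and 4.45 CPM (-1.02, SE 0.38, adjusted p = 0.435), where replicate 2 was the high value, and the change without it was -0.46. Gla, at 3.18, 5.66 and 2.56 CPM against 2.35, 2.49 and 2.19 CPM, gave -0.70, or -0.31 without that library.

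The value of Mcoln1 was nearly the same with and without that library. It measured 32.5, 31.0 and 29.5 CPM with vehicle and 39.9, 36.2 and 36.9 CPM with β-NMN, a log2 fold change of 0.28 (SE 0.10, adjusted p = 0.435), and 0.27 without replicate 2. Lamp2 lay lower in every β-NMN heart, at 240, 265 and 253 CPM against 201, 188 and 220 CPM (-0.32, SE 0.13, adjusted p = 0.435, and -0.29 without replicate 2). The V-ATPase subunits Atp6v1g1 (63.5, 51.5 and 63.3 CPM against 76.0, 74.6 and 68.7 CPM) and Atp6v0a1 (105, 95.3 and 98.7 CPM against 120, 114 and 113 CPM) lay higher in every β-NMN heart, by 0.30 and 0.22, or by 0.20 and 0.18 without replicate 2. None of these passed the test.

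Of the other heart genes chosen by smallest p within their role, Hexa (44.2, 31.1 and 54.3 CPM against 73.8, 67.7 and 52.0 CPM) overlapped between treatments, at 0.58 or 0.38 without replicate 2, and Ppt1 (42.8, 32.3 and 41.0 CPM against 45, 43.6 and 42.5 CPM) overlapped at 0.17, or 0.052 without replicate 2. Atp6v0d1 overlapped too, at 44.8, 43.3 and 40.2 CPM against 41.9, 43.0 and 37.1 CPM (-0.07). Tfeb, which fell in the peritoneal cells, measured 37.8, 27.2 and 35.9 CPM against 40.1, 42.2 and 44.3 CPM (0.33, SE 0.15, adjusted p = 0.438, and 0.19 without replicate 2, its low value).

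In the lungs of the same mice none of the 50 genes was called by edgeR's quasi-likelihood test or by DESeq2, none of the 50 had an unadjusted p below 0.05, and the smallest adjusted p was 0.969, with 0% of all 17008 genes called. The median log2 fold change was 0.00, the same as over all genes. No gene was higher in every β-NMN lung, and 2 were lower in every one, Galc and Tfe3, against 4.47% and 3.75% of all genes. Tfe3 measured 50.2, 84.4 and 53.3 CPM with vehicle and 48.9, 43.8 and 47.4 CPM with β-NMN (-0.42, SE 0.26, and -0.15 without vehicle replicate 2, its high value). Galc measured 23.6, 34.7 and 21.6 CPM against 21.4, 19.8 and 19.6 CPM (-0.39, SE 0.25, and -0.16 without that library).

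The sum of the 50 genes was 9005 to 10735 CPM in the vehicle lungs and 8553 to 10628 CPM in the β-NMN lungs, which overlapped. Several of the larger values in lung rested on vehicle replicate 2. Atp6v1g1 measured 172, 656 and 149 CPM with vehicle and 225, 134 and 168 CPM with β-NMN, for a log2 fold change of -0.89 that became 0.13 without that library. Atp6v1h measured 55.2, 206 and 42.0 CPM against 66.6, 52.0 and 51.6 CPM (-0.83, and 0.22 without it). Ctsl measured 349, 697 and 252 CPM against 311, 248 and 296 CPM (-0.60, and -0.08 without it).

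Asah1 and Lipa were low in the same library. The ceramidase Asah1 measured 104, 25.0 and 93.3 CPM with vehicle and 82.1, 128 and 115 CPM with β-NMN (0.54, and 0.13 without it). Lipa followed, at 62.4, 27.4 and 61.3 CPM against 48.5, 74.4 and 72.8 CPM (0.37, and 0.08 without it), and Lamp2 did the opposite, at 294, 498 and 209 CPM against 254, 254 and 274 CPM (-0.35, and 0.05 without it). Without that library, 1 gene (Atp6ap1) was higher and 8 (Ctsa, Ctsb, Ctsk, Ctss, Galc, Gpnmb, Naglu and Tfe3) were lower in every β-NMN lung, where 9.44% and 10.7% of all genes were. Of these, Ctsk measured 38.8, 23.7 and 31.4 CPM against 28.6, 18.3 and 26.4 CPM (-0.36, and -0.53 without it), and Gpnmb 41.7, 20.4 and 41.9 CPM against 29.3, 24.9 and 32.6 CPM (-0.26, and -0.53 without it).

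The d subunits were present in a different ratio in lung. Atp6v0d1 measured 108, 101 and 105 CPM with vehicle and 115, 95.4 and 105 CPM with β-NMN (0.01, of either sign in other analyses), and Atp6v0d2 measured 36.7, 26.1 and 41.0 CPM against 39.2, 40.2 and 45.8 CPM (0.27, adjusted p = 0.969, and 0.11 without vehicle replicate 2). Per length, Atp6v0d2 made up 14.6% to 20.5% of both with vehicle and 18.3% to 22.4% with β-NMN, ranges that overlapped, and in heart at most 0.17%.

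Heart and lung of the same mice carried these genes at different levels. With the mouse as a block and all 12 libraries on a common scale, 11 of the 50 genes were higher and 22 lower in heart than in lung, and 17 were not called, against 29.6% higher and 34.5% lower of all 16525 genes tested. These directions depended on the scale. The scaling corrects for the few genes that fill much of a library, and with library totals alone the median of all genes moved from -0.08 to -0.72 and the calls to 5 higher and 31 lower (15.3% and 50.8% of all genes). Higher in heart on both scales were Gaa, Mitf, Psap, Smpd1 and Ctsl, and all 22 genes lower in heart were lower on both, while Atp6v1c1, Ctsb and Tfeb changed sign.

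Npc2, the soluble sterol carrier, ran from 70.8 to 121 CPM in heart (median 88.3) and from 1371 to 2049 CPM in lung (median 1527) on the common scale, a log2 fold change of -4.12 (adjusted p = 6.60e-07). Atp6v0d2 was lower still in heart, with 15 reads in all 6 libraries together against 181 to 1250 reads in each lung library. The cathepsins Ctsh (-3.02), Ctsk (-1.88), Ctss (-1.61) and Ctsz (-1.55), were lower in heart. So was Gpnmb (-1.65).

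On the other side, Mitf ran from 23.4 to 60.1 CPM in heart (median 55.5) and from 9.69 to 11.1 CPM in lung (median 10.4), a log2 fold change of 2.26 (adjusted p = 3.53e-05), or 1.63 with library totals. Gaa, whose loss causes glycogen storage in muscle, ran from 284 to 337 CPM in heart (median 306) and from 39.5 to 113 CPM in lung (median 90.9), at 1.90 (adjusted p = 9.93e-05), or 1.26 with library totals. Neither gene overlapped between organs. Per length, Psap had the highest mean of the 50 in both organs, at 744 ± 156 RPKM in heart and 343 ± 67.1 in lung (SD, n = 6). In lung its range (221 to 416 RPKM) overlapped those of Npc2 (252 to 377 RPKM), Atp6v1g1 (95.2 to 441 RPKM) and Ctsd (126 to 366 RPKM). Leaving out 1 mouse gave 28 to 38 called genes of the 50. Over all genes it gave 9297 (of 16429 tested) to 13037 (of 16863 tested) calls.

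**Figure D5:**
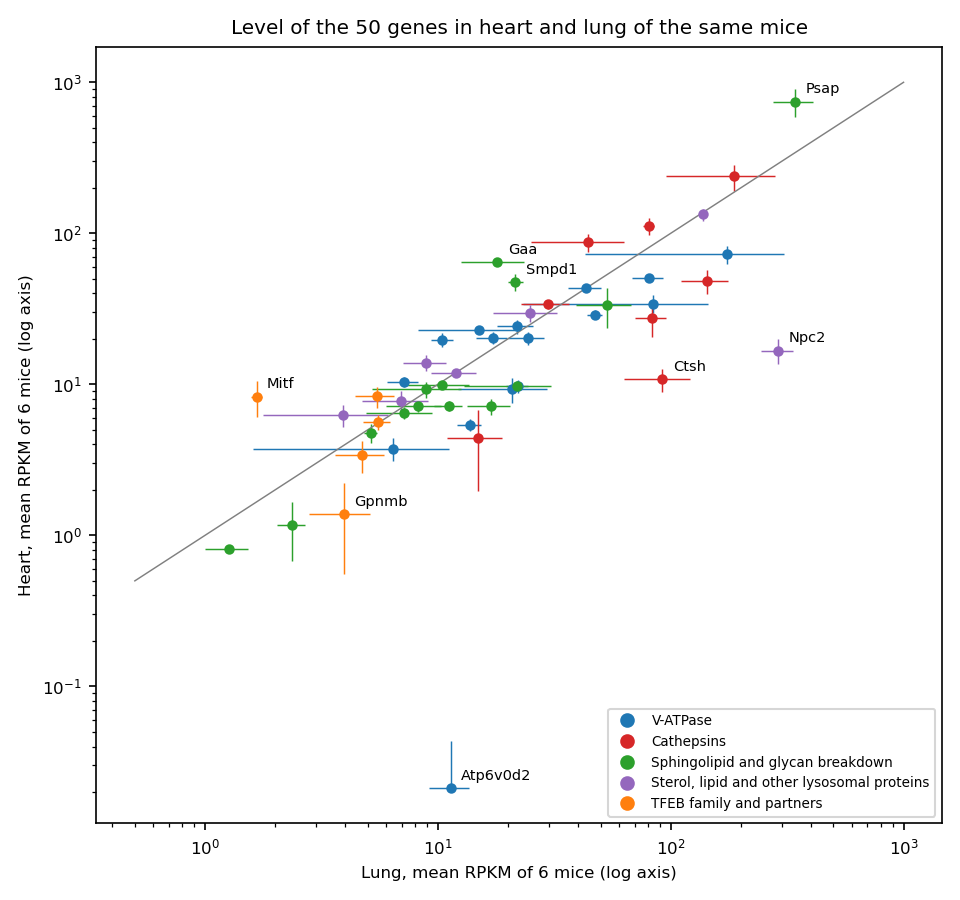
Mean RPKM of each of the 50 genes in heart against lung (log axes, 6 libraries each, bars are SD, drawn upward only where the SD exceeds the mean). Psap has the highest mean in both, Npc2 and Atp6v0d2 lie on the lung side and Mitf and Gaa on the heart side.

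The effect of β-NMN was compared between heart and lung directly, as an interaction over the 12 organ libraries. By edgeR's quasi-likelihood test none of the 50 genes passed (0% of 18318 genes tested), none had an unadjusted p below 0.05 (the smallest was 0.0929), and none passed with the mouse as a block. The peritoneal cells, counted in a separate table, were not entered in that test, so their difference from the organs was not tested. The lung libraries were the shallowest, with 3 a group, and a difference between treatments smaller than the spread of those libraries was not detectable.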

How the data were processed

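Poly(A) RNA was sequenced from 12 peritoneal cell libraries and from 12 heart and lung libraries of 6 CLP mice. The submitters' processing notes name STAR 2.7.3a, featureCounts 2.0.0 and the build mm10. The authors deposited raw counts per gene symbol in a table for the peritoneal cells and another for the organs. The gene annotation, strand setting and treatment of multi-mapping reads were not given in the sources used here. One label field names thioglycollate for the organs, while their titles and tissue labels give CLP, which was used.

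From the deposited counts, CPM were computed with TMM factors set within each tissue, so levels set side by side across tissues were scaled separately, except that heart and lung shared a scale for their comparison. RPKM used exon-union lengths from GENCODE M21 (GRCm38). Genes were tested with edgeR 4.0.16 (R 4.3.3, quasi-likelihood F-test, filterByExpr with a count minimum of 10 and a total of 15, Benjamini-Hochberg over all genes, called at 0.05). Single values used a two-sided exact permutation test, which can reach p = 0.00216 at lowest with 6 against 6 libraries and 0.1 with 3 against 3. The scripts were checked on simulated data.

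The 50 genes, their role groups and the pathway and marker lists were chosen with earlier results of these data known. Genes are named by rule: in peritoneal cells the 3 with the smallest p in each role group and the whole TFEB group, in each organ the 2 with the smallest p in each role group, between organs the 2 with the largest change in each direction, both d subunits, and the 2 with the smallest p of each pathway list. Other members are given by value to account for all 50. Of the β-NMN hearts, 2 carry the replicate number 3, and the heart whose mouse has a lung numbered 2 was given that number. Replicates are labelled as separate mice.

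Alternatives were DESeq2 1.42.0 and its size factors alone, all genes without the count filter, the newer quasi-likelihood form, limma 3.58.1 voom with quality weights, a replicate block and leaving out each library. Added after seeing the data were a term for library depth (above or below 70000000 counts), both organs in 1 fit, counts without vehicle replicate 2, and library totals only for heart against lung. No pair of libraries agreed within sampling noise, with a chi-square per gene of at least 23.1.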

Additional observations from a re-analysis of the deposited data

Results flagged for a closer look

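In the 6 vehicle or 6 β-NMN peritoneal libraries of each of the 18 named genes (36 groups), 3 held a library far from the others. About 1 in 20 groups (5%) is marked so by chance. Vehicle replicate 3 held 218 CPM of Atp6v0d2, where the next library held 143 CPM, and 1730 CPM of Ctsd, where the next held 1320 CPM. Vehicle replicate 6 held 176 CPM of Tpp1, below the next at 204 CPM. Vehicle replicate 3 is also the library with the highest fibroblast markers (812 CPM), and both high genes remained below every β-NMN library.

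For 6 genes all libraries moved one way in peritoneal cells and all moved the other way in an organ, and that difference between tissues was not tested. Of the genes whose groups were apart in peritoneal cells, 5 of 31 members were apart the other way in heart (16.1%, against 10.5% of all such genes) and 1 of 32 in lung (3.12% against 2.39%). In heart these were Gpnmb (log2 fold change -1.02, against 1.59 in peritoneal cells), Ctss (-0.65 against 0.76), Lamp2 (-0.32 against 0.57), Atp6v1h (-0.29 against 0.57) and Tfeb (0.33 against -2.0). In lung it was Galc (-0.39 against 0.75). Without vehicle replicate 2 of the organ the values were -0.46 for Gpnmb, -0.56 for Ctss, -0.29 for Lamp2, -0.13 for Atp6v1h, 0.19 for Tfeb and -0.16 for Galc. None of the organ values passed edgeR's quasi-likelihood test.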

How the results depend on the processing

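In peritoneal cells 38 to 42 of the 50 genes were called under 19 alternatives (39 to 42 when 1 library was left out), with a median log2 fold change of 0.52 to 0.61. Atp6v0d1 lost its call in 10 of the 19, Atp6v0a1 and Atp6v0b in 6 each and Ctsz in 3, and Npc1 gained one without vehicle replicate 4. Mitf changed sign to -0.15 with limma and -0.021 with the depth term, and ranged from -0.047 to 0.11 when 1 library was left out. In heart DESeq2 called 1 gene (Ctss). In lung, dropping vehicle replicate 2 gave 1 gene higher and 8 lower in every β-NMN lung, in place of 0 and 2, while the shares over all genes went from 4.47% and 3.75% to 9.44% and 10.7%. Leaving out 1 lung library gave -1.20 to 0.13 for Atp6v1g1, -1.17 to 0.22 for Atp6v1h, -0.57 to 0.052 for Lamp2 and -0.065 to 0.075 for Atp6v0d1, and in the first 3 the positive value came without vehicle replicate 2. With limma Atp6v1h was 0.049 and Atp6v0d1 -0.038, and with DESeq2 and its size factors Atp6v0d1 was -0.023. The causes were not tested. The median of the genes stayed between 0.02 and 0.08 in heart and between -0.07 and 0.03 in lung.

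Same-numbered deviations correlated at -0.17 to 0.13 in peritoneal cells, 0.07 to 0.24 in heart and -0.52 to 0.30 in lung. In heart 3 of 3 vehicle libraries lay closest to their own number, in lung 1 of 3 and in peritoneal cells 0. With 3 libraries a group, whose deviations depend on each other, these values cannot decide whether replicate numbers pair the organ libraries. With the replicate block 40 of the 50 genes were called in peritoneal cells, 0 in heart and 0 in lung. Without the mouse block heart against lung gave 31 (10673 of all 16525 genes), and with it the interaction gave 0. With 3 libraries a group, 1 of them far from the rest in each organ, small changes are not detectable.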

Other observations

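In heart and lung the 7 pathway lists held no gene called by edgeR's quasi-likelihood test. By DESeq2, 4 of their 114 tested genes were called lower in heart (Acp5, Cers6, Sort1 and Sphk1, named after their values were seen) and none of 116 was called in lung, where 1 had an unadjusted p below 0.05 by edgeR. Over all genes DESeq2 called 224 of 16245 lower in heart and 9 of 17008 in either direction in lung. In heart, 18 of 21 genes of sphingolipid synthesis and signalling had a negative log2 fold change with β-NMN (median -0.24, 7 with an unadjusted p below 0.05), and 16 of 19 nutrient sensing genes a positive one (median 0.23, 3 with an unadjusted p below 0.05), by edgeR's quasi-likelihood test. Without vehicle replicate 2 these became 17 of 21 (median -0.11) and 16 of 19 (median 0.09). Over all heart genes 50.7% were negative and 11.3% had an unadjusted p below 0.05. In lung the medians of the same lists were -0.14 and 0.06.

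Between organs, Atp6v0a4, Atp6v1b1, Atp6v1c2 and Tcirg1 were called lower in heart than in lung, and Atp6v0a2 higher. Of 19 nutrient sensing genes 11 were higher and 2 lower in heart, and of 20 autophagy genes 11 were higher and 2 lower, where 29.6% and 34.5% of all genes were. With library totals alone these counts were 2 higher and 5 lower for nutrient sensing and 7 higher and 8 lower for autophagy (15.3% and 50.8% of all genes), and of the further V-ATPase subunits none was higher and 5 were lower.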
